A study of Mus musculus with 4 samples.

Results

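Peroxiredoxins, catalase, superoxide dismutases and glutathione peroxidase are enzymes that clear superoxide and peroxides from mouse cells, and 10 of their genes were followed here in spleens with and without Snd1. The genes were Prdx1, Prdx2, Prdx3, Prdx4, Prdx5, Prdx6, Cat, Sod1, Sod2 and Gpx1, and every probe annotated to one of these symbols was taken, whatever its values. This gave 11 of the 25697 probes on the array, for 8 of the 10 genes. The annotation used here names no probe for Prdx5 or Prdx6, and these 2 genes are not analysed here.

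The superoxide dismutases turn superoxide into hydrogen peroxide, Sod1 in the cytosol with copper and zinc and Sod2 in the mitochondrial matrix with manganese. Hydrogen peroxide is then reduced by catalase in peroxisomes, by the selenium enzyme Gpx1 at the expense of glutathione, and by peroxiredoxins. Peroxiredoxins use a reactive cysteine, which thioredoxin restores in most of them. Red cells carry oxygen and iron and hold large amounts of peroxiredoxin 2, catalase and glutathione peroxidase, and mice that lack Prdx2 have fragile red cells and anaemia. The mouse spleen both stores red cells and makes them, so spleen RNA holds erythroid RNA alongside that of immune cells.

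RNA came from whole spleen tissue of female C57BL/6N mice, aged 8 weeks by the legend to the array data and 8 to 12 weeks by the extraction protocol, 2 wild type (WT) and 2 Snd1 knockout (KO), and each sample was read on its own bead array, the Illumina MouseRef-8 v2.0. In the KO mice the first exon of Snd1 had been removed in the germline with a Cre recombinase driven by the ubiquitous CAG promoter, in a lineage made in embryonic stem cells of another strain and backcrossed to C57BL/6N. WT and KO mice were littermates from heterozygous parents per the methods, and no further allele or treatment is named for either group. The comparison asked what loss of Snd1, an RNA-binding coactivator, does to gene expression in the spleen.

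Values are normalized log2 intensities unless stated otherwise, and a probe was called detected on an array where its detection value was above 0.95. Between 12396 and 12908 probes were detected per array. Of the B cell, T cell and macrophage markers with a probe, 8 of 8, 9 of 10 and 12 of 13 were detected on each of the 4 arrays. The Snd1 probe read 6.71 and 7.09 in WT and 4.45 and 4.58 in KO, where it was detected on neither array. Markers of tissues next to the spleen differed between arrays. Of 21 liver genes with a probe, 1 and 0 were detected in WT replicates 1 and 2 and 10 and 9 in KO replicates 1 and 2. Of 15 genes of the exocrine pancreas, 14 were detected in KO replicate 1 and 3 to 4 elsewhere, and of 15 adipocyte genes, 11 were detected in KO replicate 2 and 5 to 7 elsewhere. The summed level of neutrophil markers (linear normalized intensity, 14 genes) was 17605 and 14922 in WT and 11394 and 5682 in KO.

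The members include genes known for high levels in red cells and genes known to respond to oxidative stress, so 6 promoter windows of 30 bases are shown, 1 for each member and letter pattern of an erythroid or an oxidative stress factor that matched. The antioxidant response element, searched as TGACNNNGC, is the letter pattern bound by Nrf2, the regulator of the oxidative stress response. The CACCC box, searched as CCNCACCC, is of the kind bound by Klf1, the erythroid Krüppel-like factor. Capitals mark the match, and the sequences are RefSeq's (GRCm38.p6), written along the gene's own strand.
Prdx1, chr4:116685456-116685485, plus strand, antioxidant response element on the reverse strand: cagggaaagcGCTGAGTCAtcccccgtagg
Sod1, chr16:90220696-90220725, plus strand, antioxidant response element on the reverse strand: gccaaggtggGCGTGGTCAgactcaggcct
Prdx1, chr4:116685516-116685545, plus strand, CACCC box: tccccctcttcCCGCACCCccggcccgtga
Prdx2, chr8:84969513-84969542, plus strand, CACCC box: gaaagggcacaCCCCACCCaacccttgtga
Prdx3, chr19:60874612-60874641, minus strand, CACCC box: ctttgcataaaCCACACCCctcctccaccc
Cat, chr2:103485233-103485262, minus strand, CACCC box: cccacttctcgCCCCACCCtccttccaatc

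Both strands were searched over the 250 bases before the start of each gene, and 9 of the 10 genes had a promoter in the table, Prdx6 being the exception. Prdx2 held 2 CACCC boxes, Cat 3, Prdx1 2 and Prdx3 1, against 14.9% of all 32851 promoters with at least 1. Prdx1 and Sod1 each held 1 antioxidant response element, found in 10.2% of all promoters. The GATA motif of erythroid and other GATA factors (AGATAA or AGATAG or TGATAA or TGATAG, in 26.5% of promoters) had no match in the 9 windows. The matches describe these letters and were not tested as binding sites.

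No antioxidant enzyme passed the test between KO and WT spleens, and the intervals were wide for Prdx2 and Cat. Of the 11 member probes, 10 were bright enough to be tested (detected on each array of WT, of KO or of both), covering 8 genes, together with 12493 probes in all. By limma, a linear model per probe with moderated errors, and Benjamini-Hochberg adjustment over these probes, 0 of the 10 passed at 0.05, where 0.0160% of all tested probes did, and 0 reached an unadjusted p under 0.05, where 6.09% did (3.31% higher and 2.78% lower in KO). The unmoderated test also gave 0 after adjustment, but it gave 0 over all 12493 tested probes too, so this does not set the members apart. The probe of the deleted gene Snd1, detected on neither KO array, did not pass in the limma fit either (log2 difference -2.39, adjusted p = 0.0869). By the brightest probe of each gene, 3 genes had a higher and 5 a lower mean in KO, with log2 fold changes from -0.71 (Cat) to 0.29 (Prdx4), a median of -0.041 over the 8 genes and of -0.0054 over all tested probes. The KO and WT values lay apart for 1 of the 8 genes (Prdx4), with KO higher. Such separation, in either direction, was found for 37.9% of all tested probes, and with KO higher for 19.4%.

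**Figure D1:**
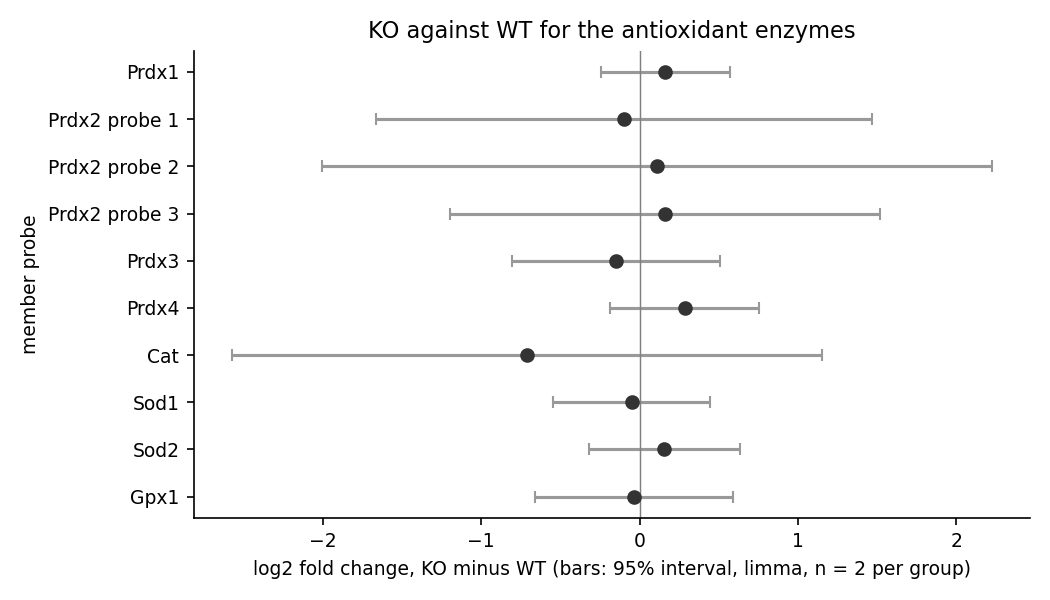
Log2 fold change of KO minus WT (x axis) for each of the 10 tested member probes (y axis), with bars for the 95% interval from limma, 2 arrays per group. Every bar crosses 0, and the bars of the Prdx2 probes and of Cat are the widest.

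The cytosolic peroxiredoxin Prdx1 covered a narrow range on the 4 arrays. Its bright probe read 12.53 and 12.61 in WT and 12.86 and 12.61 in KO, so that KO replicate 1 was the high array and KO replicate 2 matched WT replicate 2. The difference was 0.16 ± 0.16 (log2, SE) with a 95% interval of -0.25 to 0.57 and an adjusted p of 0.860 (limma). A second Prdx1 probe was detected on none of the arrays, at 4.35 to 4.42, and was not tested.

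Prdx2, the peroxiredoxin of the red cell cytosol, differed far more between the 2 WT spleens than between the genotype means. Its brightest probe (ILMN_2773554) gave raw signals of 11130 and 2753 in WT and 5189 and 5440 in KO, and after normalization read 13.35 and 11.46 in WT and 12.28 and 12.33 in KO. WT replicate 1 was thus the highest array and WT replicate 2 the lowest, 3.71-fold apart, and both KO arrays lay between them and within 1.03-fold of each other. Of all tested probes, 1.03% had a larger gap between the WT arrays. Both other Prdx2 probes also read higher on WT replicate 1. The second probe read 8.74 and 6.16 in WT and 7.47 and 7.65 in KO, and the third, dim one 6.61 and 4.98 in WT and 5.95 and 5.95 in KO, where it was detected on 3 of the 4 arrays but not on WT replicate 2.

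The 3 Prdx2 probes did not give 1 direction for KO against WT. The brightest gave -0.097 ± 0.61 (log2, SE, 95% interval -1.66 to 1.47, adjusted p = 0.981, limma), the second 0.11 ± 0.82 (-2.01 to 2.22, 0.986) and the third 0.16 ± 0.53 (-1.20 to 1.52, 0.964). On the linear scale the interval of the brightest probe ran from 3.17-fold lower to 2.77-fold higher in KO. The sign hung on which WT array was kept, since the value was 0.85 without WT replicate 1 and -1.04 without WT replicate 2, neither past the threshold. The second probe turned to -0.048 when no background was corrected for, and likewise in the authors' value table.

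Prdx3, the mitochondrial peroxiredoxin, had the order of the WT arrays seen for Prdx2 in a smaller range. It read 10.08 and 9.41 in WT and 9.68 and 9.51 in KO, with WT replicate 1 again the highest and WT replicate 2 the lowest array. The WT arrays were 1.59-fold apart and the KO arrays 1.12-fold, and the difference between genotypes was -0.15 ± 0.26 (log2, SE, adjusted p = 0.928, limma), turning to 0.18 without WT replicate 1.

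Prdx4, the peroxiredoxin of the endoplasmic reticulum, which oxidises folding proteins in secretory cells, was the gene whose groups did not overlap. It read 10.95 and 10.75 in WT and 11.30 and 10.97 in KO, so that KO replicate 2 lay just above WT replicate 1. The difference of 0.29 ± 0.18 (log2, SE, 95% interval -0.18 to 0.76) was 1.22-fold and did not pass (adjusted p = 0.771, limma), and leaving out KO replicate 1 gave 0.12 and leaving out KO replicate 2 gave 0.45. Of 10 tested markers of plasma cells, which secrete antibody, 8 read higher on both KO arrays than on both WT arrays, against 19.4% of all tested probes. The groups overlapped for the other markers, Irf4 (log2 difference 0.095) and Tnfrsf17 (-0.061). The 8 markers (Xbp1, Mzb1, Creld2, Edem1, Derl3, Fkbp11, Sec11c and Txndc5) were each highest on KO replicate 1. Of the 10 markers, 0 passed the test (limma). An unadjusted p under 0.05 with a higher mean in KO was found for 2 of them, against 3.31% of all tested probes. The summed level over 13 genes was 11527 and 12819 in WT and 20788 and 14552 in KO, and that of 15 exocrine pancreas markers was 748 and 636 in WT and 7150 and 587 in KO. Their part in the Prdx4 values was not tested.

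Catalase showed the largest difference between genotype means among the 8 genes. The size of this difference hung on single arrays of both genotypes, and its sign turned only without KO replicate 1. The Cat probe (ILMN_2826110) read 10.02 and 8.92 in WT and 7.77 and 9.75 in KO. KO replicate 1 was the lowest array, 3.96-fold below KO replicate 2, a gap that 0.216% of all tested probes exceeded, while KO replicate 2 lay between the WT arrays. The means were 9.47 ± 0.77 in WT and 8.76 ± 1.40 in KO (SD, n = 2), a difference of -0.71 ± 0.73 (log2, SE, 95% interval -2.57 to 1.15, adjusted p = 0.872, limma). Without KO replicate 1 it was 0.28 and without KO replicate 2 it was -1.70, while leaving out WT replicate 1 gave -0.16 and leaving out WT replicate 2 gave -1.26.

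The superoxide dismutases had small differences between genotype means. Sod1 read 11.74 and 11.35 in WT and 11.58 and 11.40 in KO, a difference of -0.050 ± 0.19 (log2, SE, adjusted p = 0.971, limma), and Sod2 10.70 and 10.37 in WT and 10.81 and 10.58 in KO, a difference of 0.16 ± 0.19 (adjusted p = 0.899). In both genes the KO and WT ranges overlapped, and WT replicate 2 was the lowest array. The 95% intervals ran from -0.54 to 0.44 for Sod1 and from -0.32 to 0.63 for Sod2.

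Gpx1, the cytosolic glutathione peroxidase, read 14.60 and 13.97 in WT and 14.19 and 14.31 in KO. The order of the WT arrays was that of Prdx2, 1.55-fold apart, with both KO arrays between them. The difference was -0.033 ± 0.24 (log2, SE, 95% interval -0.66 to 0.59, adjusted p = 0.986, limma), turning to 0.28 without WT replicate 1 and to 0.029 without KO replicate 1. The Gpx1 probe was at 54.3% to 90.4% of the brightest signal on each array.

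**Figure D2:**
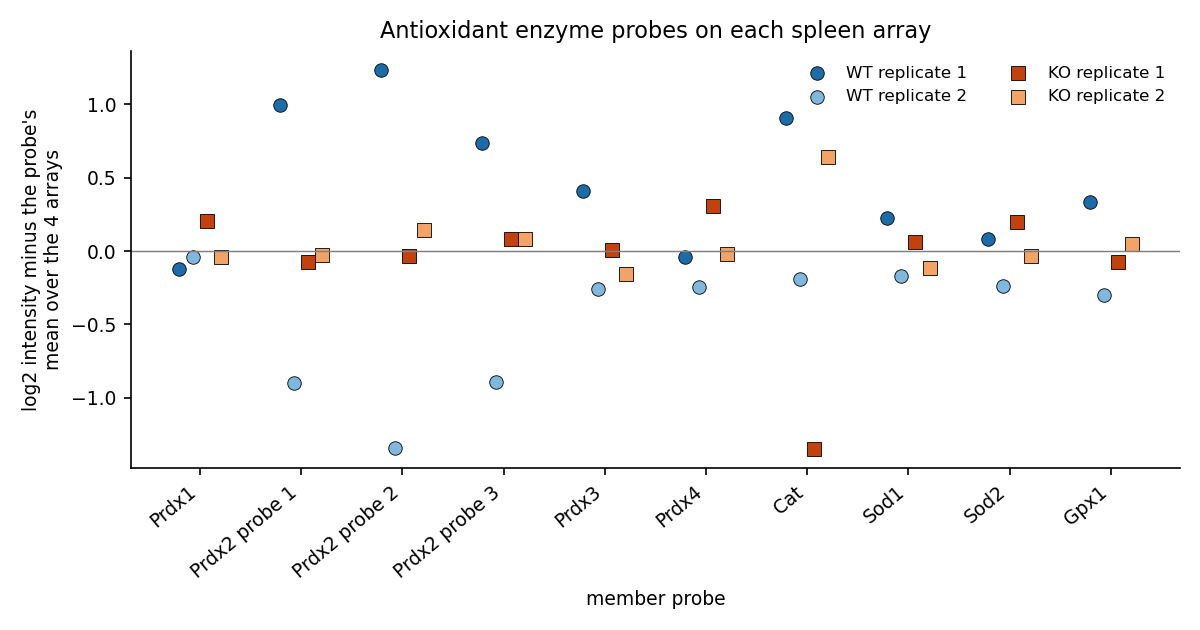
Log2 intensity minus the probe's own mean over the 4 arrays (y axis) for each tested member probe (x axis), with circles for the WT and squares for the KO arrays. The 3 Prdx2 probes have WT replicate 1 on top and WT replicate 2 at the bottom with both KO arrays near 0, and Cat has KO replicate 1 at the bottom.

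For 6 of the 8 genes the gap between the WT arrays exceeded the difference between the genotype means, as it did for 59.1% of all tested probes. Of the 8 genes, 7 read higher on WT replicate 1 than on WT replicate 2, Prdx1 being the exception, against 41.3% of all tested probes. At least 2-fold higher on WT replicate 1 were 4 of the 10 probes, the 3 of Prdx2 and that of Cat, against 3.38% of all tested probes. The 3 Prdx2 probes read 1 gene, and by the brightest probe of each gene it was 2 of the 8 genes (25%). Between the KO arrays 1 of the 10 probes, Cat, was at least 2-fold apart, against 1.48% of all tested probes, and 0.616% were at least 2-fold lower on KO replicate 1 as Cat was.

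The erythroid content of the samples differed in the same way between the WT spleens. Of 32 erythroid genes listed, 25 had a probe and 20 were tested, none of them a member, and 18 of the 20 were at least 2-fold higher on WT replicate 1 than on WT replicate 2. In 16 of the 20 WT replicate 1 was the highest and WT replicate 2 the lowest of the 4 arrays, a pattern of 8.94% of all tested probes. Klf1, the erythroid Krüppel-like factor, read 10.30 and 7.26 in WT and 9.29 and 9.18 in KO. Slc4a1, the anion exchanger band 3 of the red cell membrane, read 14.38 and 10.98 in WT and 13.58 and 13.88 in KO, and Alas2, the first enzyme of erythroid heme synthesis, 12.91 and 11.06 in WT and 11.26 and 11.94 in KO. The alpha globin gene Hba-a1 did not show the pattern. It read 14.48 to 14.57 on the 4 arrays, where its signal was 82.1% to 86.5% of the brightest. In whole tissue, fewer erythroid cells and less RNA per erythroid cell cannot be told apart.

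Taken as the mean over the 20 genes, erythroid content was 9.86 and 7.19 in WT and 8.74 and 8.90 in KO (log2), 6.34-fold apart between the WT arrays and 0.29 higher in KO, less than the SD of 1.88 between the WT arrays. The summed linear level over the tested genes was 70747 and 28924 in WT and 45411 and 51680 in KO. Without the globin genes Hba-a1 and Hbb-b2, an alternative chosen after seeing the data, the mean was 9.80 and 6.91 in WT and 8.63 and 8.75 in KO. The summed level without them was 47680.8 and 5987.0 in WT and 21992.2 and 27238.5 in KO. For the mean over the 20 genes, the sign of the KO difference turned without WT replicate 2 (-1.04) and was positive without WT replicate 1 (1.63).

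Prdx2 followed erythroid content from array to array. Set as deviations from the mean over the 4 arrays, erythroid content was at 1.18 and -1.48 in WT and 0.067 and 0.23 in KO. The second Prdx2 probe was at 1.23 and -1.34 in WT and -0.036 and 0.14 in KO, within 0.14 (log2) of erythroid content on each array. The brightest Prdx2 probe was at 0.99 and -0.90 in WT and -0.073 and -0.024 in KO, and the largest distance, 0.58, was on WT replicate 2. The gap between the WT arrays was 71.0% and 96.7% of the erythroid gap (log2) for the 2 brighter Prdx2 probes. It was at least 59.3% for the third, which was not detected on WT replicate 2. For the other genes apart from Cat it was 25.1% for Prdx3, 23.6% for Gpx1, 14.8% for Sod1, 12.2% for Sod2 and 7.49% for Prdx4. Prdx1 went the other way, at -2.96%. With 4 arrays no correlation across samples was computed, and the part of erythroid content in the Prdx2 values was not tested.

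Cat followed erythroid content on the WT arrays in direction and left it on KO replicate 1. Its deviations were 0.90 and -0.19 in WT and -1.35 and 0.64 in KO, so that Cat stood 1.29 above erythroid content on WT replicate 2, 1.41 below it on KO replicate 1 and 0.41 above it on KO replicate 2. The gap between the WT arrays was 41.1% of the erythroid gap. Relative to erythroid content the KO minus WT value was -1.0 for Cat and -0.39 for the brightest Prdx2 probe (log2). It was -0.19 and -0.14 for the other Prdx2 probes, -0.44 for Prdx3, -0.34 for Sod1 and -0.33 for Gpx1. For Sod2 it was -0.14, for Prdx1 -0.13 and for Prdx4 -0.0088. Erythroid content itself, which was 0.29 higher in KO, was subtracted in full from every probe, whatever share of the erythroid gap that probe showed. Probes with a higher mean in KO, such as Prdx1 and Prdx4, therefore came out negative too. With 1 array left out, the value ran from -1.92 to -0.092 for Cat and from -0.78 to -0.0048 for the brightest Prdx2 probe.

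**Figure D3:**
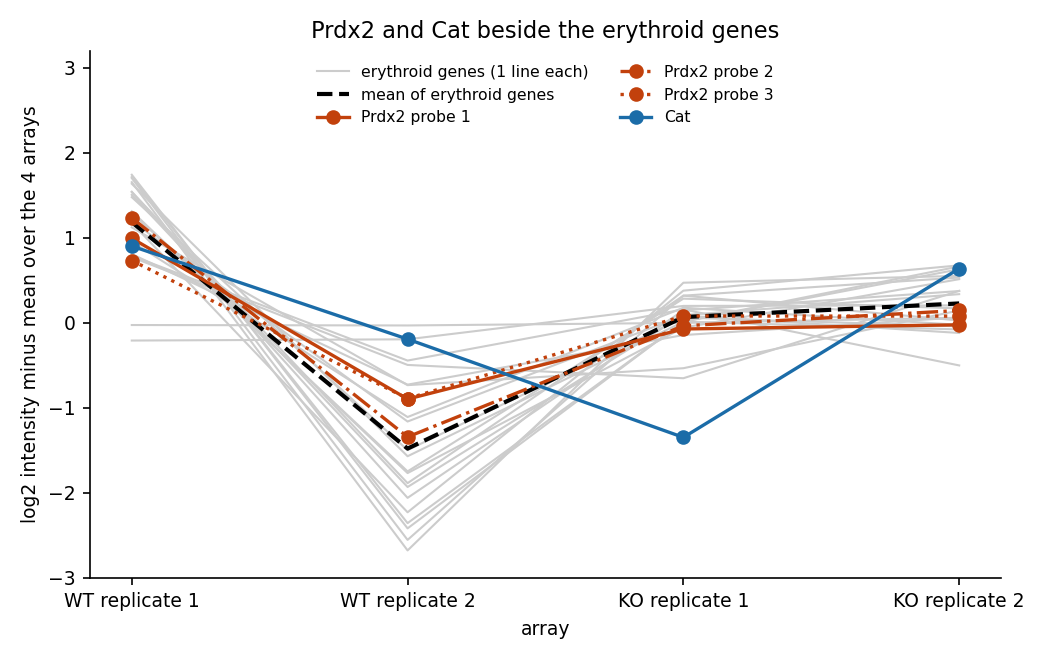
Log2 intensity minus the mean over the 4 arrays (y axis) on each array (x axis), for the 20 erythroid genes (grey lines), their mean (dashed), the 3 Prdx2 probes and Cat. The Prdx2 lines run with the erythroid mean, high on WT replicate 1 and low on WT replicate 2, and the Cat line has its lowest point, -1.35, on KO replicate 1.

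Other tissues that carry catalase were also uneven between the arrays. Liver and fat are known for abundant catalase, and the summed level of 21 liver genes was 497 and 490 in WT and 1482 and 1062 in KO, highest on KO replicate 1 where Cat was lowest. Of these 21 genes, 11 were detected on no array, and 1 and 0 were detected in WT replicates 1 and 2. The WT sums are thus mostly background, and their ratio to KO does not measure liver RNA. The sum over 15 adipocyte genes was 3337 and 3594 in WT and 4547 and 6766 in KO, highest on KO replicate 2. The B cell sum over 8 genes was lowest on KO replicate 1, at 12806 against 15243 and 19769 in WT and 18330 in KO replicate 2. The other immune lists did not share this low point. Sums for macrophages (34821) and plasma cells (20788) were highest on KO replicate 1. Those for T cells (9977) and neutrophils (5682) were lowest on KO replicate 2. The part of these cells in the Cat values was not tested.

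The genes whose profiles over the 4 arrays lay nearest to that of Prdx2 were Pigq, Mboat2, Abcb6, Tmem120b and Cdr2, at root mean square distances of 0.022 to 0.068 (log2) between centred profiles. Pigq read 10.30 and 8.37 in WT and 9.19 and 9.28 in KO, and Abcb6 7.41 and 5.59 in WT and 6.36 and 6.56 in KO. Nearest to Cat were Cmas, Cwc22, Klra7, Cd209b and Hbb-b2, farther off at 0.12 to 0.41. Cmas read 9.43 and 8.61 in WT and 7.48 and 9.42 in KO. Each distance is over 4 arrays, and the 5 nearest genes were named for each. Mboat2 read 4.77 on WT replicate 2, below the lowest level of a detected probe on that array (5.03). Hbb-b2 was detected on 3 of the 4 arrays. The distances of these genes thus rest in part on undetected values.

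The genes that serve these enzymes did not pass as single genes either. Of 87 genes of the glutathione and thioredoxin systems, the Nrf2 pathway, copper delivery to the dismutases and the peroxisome, 64 were tested and 0 passed over all probes (limma, smallest adjusted p = 0.771, and 0 in the unmoderated test over all tested probes). Before adjustment, 2 of the 64 genes with a higher and 3 with a lower mean in KO had a p under 0.05 (limma). Of all tested probes, 3.31% were higher and 2.78% lower in KO at that p. The groups did not overlap for 16 higher and 13 lower genes, 45.3% of the 64 against 37.9% of all tested probes, and the median log2 fold change was 0.011. In the lists that follow, the genes named are up to 4 of each with the smallest p in the same fit (limma).

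Among the glutathione genes, 20 were tested, with a median of 0.018, and the groups did not overlap for 4 higher and 2 lower genes, 30% of the list against 37.9% of all tested probes. The mitochondrial glutaredoxin Glrx2 read 6.69 and 6.25 in WT and 7.15 and 7.13 in KO, 0.66 ± 0.19 (log2, SE). The glutathione transferase Gstp1 read 10.76 and 10.53 in WT and 10.18 and 10.24 in KO, -0.44 ± 0.16, while the transferases Gstm1 (0.37) and Mgst1 (0.44) had higher means. The KO arrays lay apart from the WT arrays for these 4 genes, which were named for having the smallest p of the list.

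Of the thioredoxin system, 11 genes were tested, with a median of -0.013 and 2 higher and 3 lower genes whose groups did not overlap (45.5%, against 37.9% of all tested probes). Lower on both KO arrays were Msrb2, which repairs oxidised methionine in mitochondria (7.46 and 7.26 in WT, 6.74 and 6.86 in KO), Srxn1, the sulfiredoxin that restores overoxidised peroxiredoxins (6.68 and 6.36 in WT, 6.15 and 5.81 in KO), and the stress-inducible sestrin Sesn1 (11.14 and 11.38 in WT, 10.45 and 10.95 in KO). Their differences of -0.56, -0.54 and -0.56 did not pass. Nxn, nucleoredoxin, was at 0.22.

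The Nrf2 pathway gave 14 tested genes and a median of -0.022, with 2 higher and 4 lower genes whose groups did not overlap (42.9%, against 37.9% of all tested probes). Nfe2l2, which encodes Nrf2 itself, was at -0.30 and its competitor Bach1 at -0.35, both with lower values on the KO arrays, and the cystine transporter Slc7a11 was at 0.60 with higher ones. Of the genes next to the dismutases, the extracellular dismutase Sod3 read 6.74 and 6.90 in WT and 7.32 and 7.55 in KO (0.61 ± 0.16, log2, SE), and Ccs, the copper chaperone of Sod1, was at -0.14, Slc31a1, the copper importer, at 0.11 and Atox1, a copper chaperone, at 0.044.

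Genes of the peroxisome, where catalase resides, went both ways, with 17 tested, a median of 0.078 and groups that did not overlap for 6 higher and 4 lower genes, 58.8% of the list against 37.9% of all tested probes. None of the 17 had an unadjusted p under 0.05 (limma). The transporter Slc25a17 read 7.52 and 8.35 in WT and 7.29 and 5.73 in KO (-1.43 ± 0.57, log2, SE), and its low array, KO replicate 2, was not the array on which Cat was low. Pex14 (0.36), Pex7 (0.29) and Scp2 (-0.27) had smaller differences. The summed level of 21 peroxisome genes was 10142 and 11617 in WT and 10783 and 11125 in KO, without the low value of Cat on KO replicate 1.

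The gap between the WT spleens reached part of these helper genes too. At least 2-fold higher on WT replicate 1 than on WT replicate 2 were 7 of the 64 genes, 10.9% against 3.38% of all tested probes, and 1 was at least 2-fold higher on WT replicate 2, against 0.424%. These genes were picked out after their values were seen. The microsomal glutathione transferase Mgst3 read 11.41 and 8.07 in WT and 10.19 and 10.24 in KO, 10.1-fold apart between the WT arrays, and Gclm, the regulatory subunit of the rate-limiting enzyme of glutathione synthesis, read 10.25 and 8.16 in WT and 9.37 and 9.59 in KO. Gstm5, Glrx5 and Txnrd2 were 3.81-fold, 2.61-fold and 2.55-fold apart between the WT arrays, and Nqo1, not detected on WT replicate 2, at least 2.58-fold. Such bounds set the undetected array at the lowest level of a detected probe on it. Hmox1, the heme oxygenase, was the seventh, at 10.68 and 9.20 in WT and 10.41 and 8.64 in KO, and it also differed between the KO arrays.

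**Figure D4:**
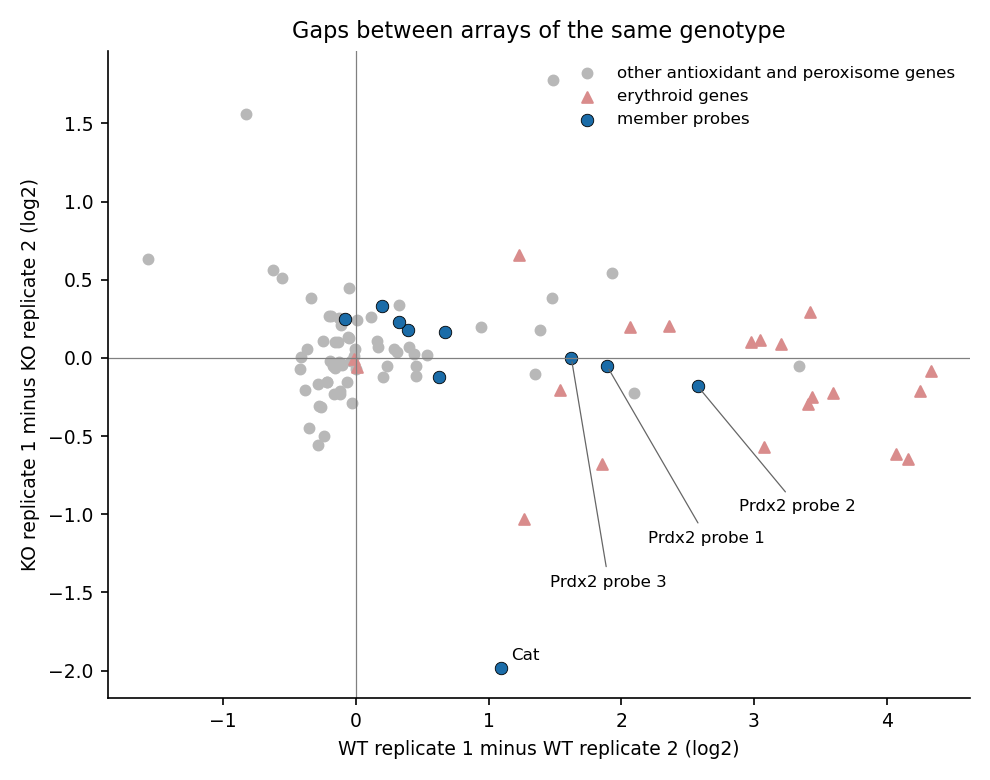
Gap between the WT arrays (x axis, WT replicate 1 minus WT replicate 2, log2) against the gap between the KO arrays (y axis, KO replicate 1 minus KO replicate 2, log2), for the 10 member probes, 20 erythroid genes and 64 other antioxidant and peroxisome genes. The Prdx2 probes lie to the right near 0 on the y axis, in the range of the erythroid genes, and Cat lies alone at -1.99 on the y axis.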

How the data were processed

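Per the file headers, the authors deposited probe intensity values on a linear scale without normalization, exported with Illumina Genome Studio, and a detection value per probe as a fraction, headed as a p-value but high for bright probes (rank correlation 0.975 to 0.991), which was taken to be 1 minus a p-value. In the deposit, the authors' value table holds log2 intensities, quantile normalized without background correction or centring. Its scale was unstated and was found from the signals (largest difference 5.00e-09, 1 probe aside), and its column medians were 6.82 on each array. No genome build, slide or scan batch was found in the labels or methods.

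Here the intensities were background-corrected by normexp (offset 16), quantile normalized and log2 transformed with neqc from limma 3.58.1 in R 4.3.3. The 12493 of 25697 probes whose detection value exceeded 0.95 throughout WT, KO or both were fitted with lmFit and eBayes, two-sided, on 5.04 total degrees of freedom of which 2 were residual, and Benjamini-Hochberg adjustment over these probes at a threshold of 0.05. An exact permutation test of 2 against 2 arrays cannot go below 0.333 and was not used. With 4 arrays, their number limits the precision.

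23978 probes had 1 gene symbol, 0 several and 1719 none in the annotation. A gene in a list was represented by its tested probe of highest mean. The members and lists were chosen with earlier results of these data known. Named were the members, up to 4 genes of each pathway list with the smallest p, fixed erythroid markers where measured, up to 2 of the brightest genes of each other cell type list (given here as sums in place of single genes), the 5 genes nearest to Prdx2 and to Cat, and Snd1. Alternatives changed the background step (none, or an offset of 50), the scaling (by medians, or the authors' value table), the filter (none, or a detection value above 0.99 on every array), the test (array weights, a robust prior with a trend, no moderation, or a block for replicate number), the mean of a gene's probes, and each array left out in turn.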

Additional observations from a re-analysis of the deposited data

How the results depend on the processing

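No member probe passed the adjusted threshold under any alternative, the smallest adjusted p being 0.161 (the second Prdx2 probe without WT replicate 1). With all arrays kept, 97 of 99 member values had the direction first given, and the second Prdx2 probe turned to -0.048 without background correction and to -0.048 with the authors' value table. With 1 array left out, 10 of 40 turned: the ranges were -1.04 to 0.85, -1.18 to 1.40 and -0.65 to 0.97 for the 3 Prdx2 probes, -0.48 to 0.18 for Prdx3, -1.70 to 0.28 for Cat, -0.25 to 0.15 for Sod1, -0.0049 to 0.32 for Sod2 and -0.35 to 0.28 for Gpx1, while Prdx1 and Prdx4 kept a positive sign. The mean of the 3 Prdx2 probes gave 0.057. Relative to erythroid content, other settings, chosen after seeing the data, gave -0.44 to -0.24 for the brightest Prdx2 probe and -1.05 to -0.72 for Cat. The difference in erythroid content ranged from -1.04 to 1.63 with 1 array left out and from 0.14 to 0.38 otherwise.

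The count over all probes, 2, was 0 without background correction, 0 from the authors' value table, 0 when unfiltered, 0 in the unmoderated test, 0 with the replicate block, 4 with an offset of 50 and 8 with a trend and robust prior (7 higher and 1 lower), and 0 to 16 with 1 array left out, the 16 (15 higher and 1 lower) without WT replicate 1. The causes were not tested. The labels tie replicate numbers to no litter or day, so the samples share only a number (correlation of same-numbered deviations 0.19), and the replicate block changed no call of a member. 2 arrays per group leave intervals of several fold for Prdx2 and Cat.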
